A study of Mus musculus with 6 samples.

Results

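The genes described here encode the aminoacyl-tRNA synthetases of the cytosol and of the mitochondria. They were chosen by name from a list of 36 symbols, not by a rule on measured values, though earlier results of these data were known. Of the 36, 35 were found among the 18193 genes that the array represents with a probe set of a single gene symbol. Of these, 19 encode cytosolic enzymes, with Gars and Kars serving both compartments, and 16 encode mitochondrial enzymes. Dars is not analysed here, and Mars is listed under the symbol Mars1. A gene was tested when its mean signal lay at or above the median of all probe sets, and 32 members passed: all 19 cytosolic and 13 mitochondrial ones. Aars2, Mars2 and Vars2 lay under that filter.

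Each of these enzymes joins an amino acid to its transfer RNA, the step that supplies every charged tRNA to the ribosome. Class I and class II enzymes have unrelated folds, most mitochondrial enzymes are encoded by separate nuclear genes, and several cytosolic enzymes sit in a multi-synthetase complex held together by the scaffold proteins Aimp1, Aimp2 and Eef1e1. The secretory mammary epithelium makes large amounts of milk protein in late pregnancy and lactation, and many cytosolic synthetase genes are known targets of Atf4, the transcription factor of the amino acid response. When a tRNA is left uncharged, the kinase Eif2ak4 senses it and starts that response.

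The study took mammary glands from 6 female mice of a mixed 129/FVB/Black Swiss background and searched for genes under the control of Brca1, a tumour suppressor with a role in DNA repair. Each array held RNA from 1 mouse, and there was 1 mutant and 1 control at each of 3 stages. The virgin mutant was Brca1 D11/D11 with p53+/- and its control Brca1 D+/+ with p53+/-, both 6 months old. At day 1 of lactation the mutant and the control had the same pair of genotypes and were 2 months old. At day 16.5 of pregnancy, at 5 months, the mutant was Brca1 co/co with MMTV-Cre and the control Brca1 +/co with MMTV-Cre. There, Cre recombinase under a mouse mammary tumour virus promoter deletes the conditional allele in the cells where that promoter is active, so other cells of the gland keep it, and the control also carries 1 conditional copy and Cre. The series text gives the germline genotype for all pairs, and the sample labels were followed here.

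A stage is therefore 2 mice that differ in genotype, and it cannot be told apart from age. For the lactating pair it cannot be told apart from another array date in the labels. The pregnant stage cannot be told apart from the Brca1 and p53 alleles, whereas the virgin and lactating pairs are labelled with the same genotypes. In whole tissue, fewer cells of a type and less RNA per cell cannot be told apart either. Where 2 signals of a stage are given, the control comes first and the mutant second. Signals are MAS5 intensities, which the authors scaled to a 2%-trimmed mean of 500 on each array. The median signal of an array was 119.9 to 157.8 in the virgin and pregnant glands, 230.8 in the lactating control and 211.2 in the lactating mutant. The 3′ to 5′ signal ratio, which rises as RNA degrades, was highest in the virgin control, at 2.74 for actin and 3.5 for Gapdh, against 1.37 to 2.03 and 0.732 to 1.52 elsewhere. The Brca1 probe set read 137.0 and 486.5 in virgin glands, 158.7 and 288.0 at the pregnant stage and 237.6 and 156.7 at lactation, so it was lower in the mutant of the lactating pair alone. The position of the probe set within Brca1 was not known here, so these values do not check the labels. The summed signal of 10 secretory alveolar markers was 130530 and 166196 in the virgin glands, 274620 to 375308 in the pregnant and 402360 to 426940 in the lactating ones. Their median log2 ratio was 2.05 for pregnant against virgin and 0.22 for lactating against pregnant glands. They thus set the virgin glands apart, and the other 2 stages from each other much less.

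Promoter sequences are shown for the members that hold the core of the C/EBP-ATF response element, the type of site that Atf4 is known to bind, because the Atf4 list and the synthetases are set side by side further on. RefSeq promoter windows of build GRCm38.p6, from 250 bases before to 50 after a transcript's start, were at hand for 26 members. The letters TGATGNAA, searched on both strands, occurred in 5 of these 26 genes (19.2%), in 2.78% of the tested genes with a window and in 4.51% of all genes of the table. Counted from the transcript start that the window is built on, they lay 30 bases before it in Gars, 112 before in Aars (with another match 10 after), 15 before in Tars, 8 after in Iars and 4 after in Yars. In Aars and Yars the gene's annotated span begins upstream of that start. Each stretch is printed 5′ to 3′ on the gene's strand with the match in capitals, for Gars (chr6:55037941-55038000), Aars (chr8:111033704-111033763), Tars (chr15:11399659-11399718, minus strand), Iars (chr13:49682126-49682155) and Yars (chr4:129189895-129189924).
Gars: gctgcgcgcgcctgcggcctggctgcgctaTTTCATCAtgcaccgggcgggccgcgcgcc
Aars: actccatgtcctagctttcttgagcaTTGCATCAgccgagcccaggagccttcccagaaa
Tars: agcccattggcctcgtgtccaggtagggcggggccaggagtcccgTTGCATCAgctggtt
Iars: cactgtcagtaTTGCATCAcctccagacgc
Yars: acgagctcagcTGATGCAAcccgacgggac
In 4 of the 5 the motif stands on the opposite strand, so that its reverse complement is what the capitals show. Of 2 further motifs searched the same way, the E-box CACGTG was found in 5 of the 26 members (19.2%), against 11.8% of tested and 8.09% of all genes. The ETS element CCGGAAG was found in 9 of the 26 (34.6%), against 19.5% of tested and 9.93% of all genes. No match overlapped a match of another motif. A match describes these letters and is not evidence of binding.

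**Figure D1:**
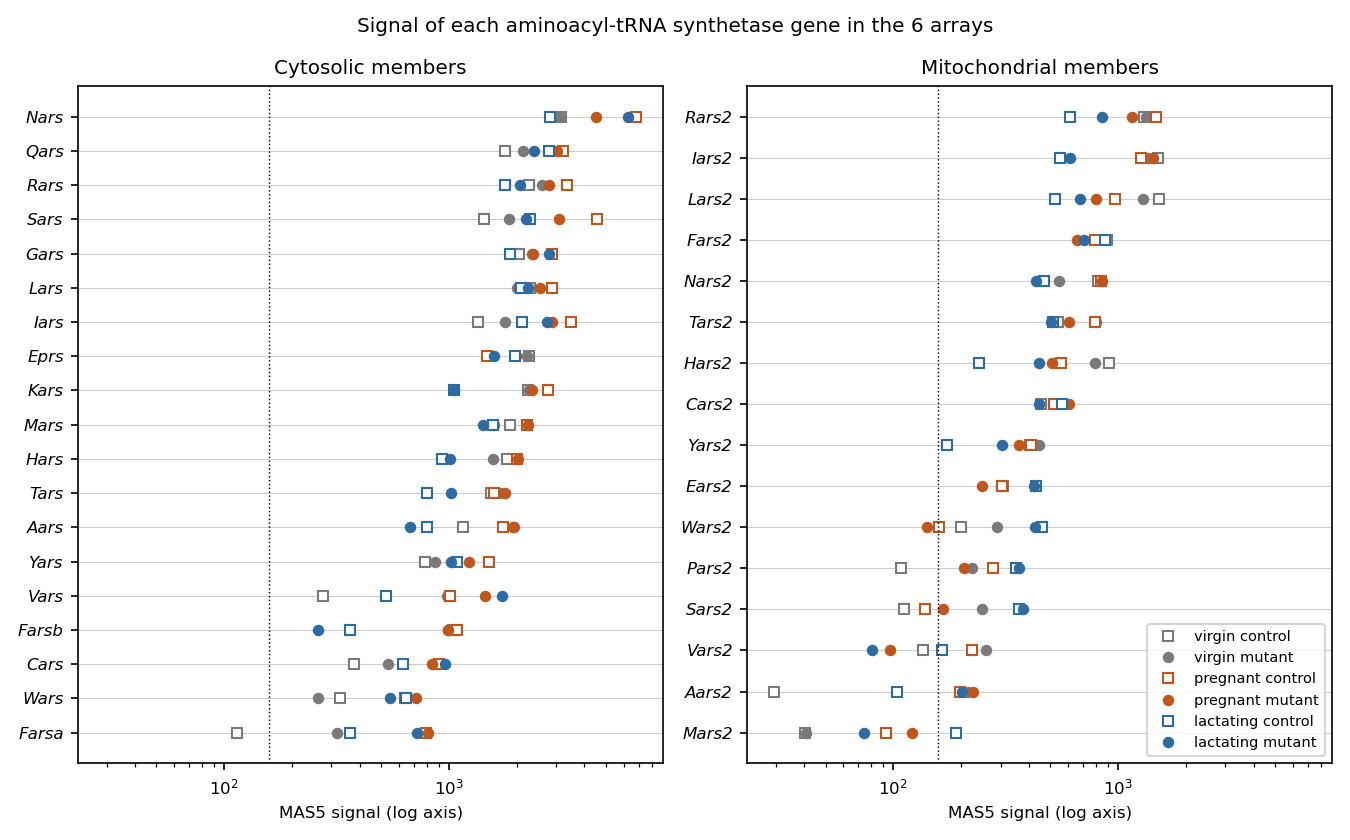
MAS5 signal (log axis) of the probe set used for each of the 35 genes, with cytosolic members on the left and mitochondrial members on the right. Open squares are controls, filled circles mutants, and the colour gives the stage. The dotted line is the filter at a signal of 158.1. In Farsb and Kars both lactating arrays lie left of the other 4, while in Farsa and Vars the virgin control lies left of all others.

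Between virgin and pregnant glands, 5 cytosolic synthetase genes rose: Farsa, Sars, Wars, Iars and Cars, by 1.84-fold to 3.42-fold on the log2(signal + 52.1) scale used throughout. They are 5 of 32 members tested (15.6%), where 6.61% of all 11341 genes tested were called higher by limma at an adjusted p under 0.05. No member was called lower, against 8.09% of all genes. The median log2 ratio was 0.25 over the members and -0.06 over all genes tested. The median member ratio was 0.27 between the 2 controls and 0.06 between the 2 mutants.

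Farsa, the catalytic alpha subunit of phenylalanyl-tRNA synthetase, read 114.3 and 317.7 in virgin glands and 790.0 and 803.1 in pregnant ones. Its log2 ratio was 1.77 ± 0.31 (SE, 2 arrays per stage; adjusted p = 0.0115). Both pregnant arrays lay above both virgin ones, and the virgin control was the lowest of all 6. Farsa also shows how far probe sets of 1 gene can part: of its 2 other bright probe sets, one gave 0.79 and the other -0.71, and the mean of its probe sets gave 0.61 and no call. Sars, whose enzyme charges serine tRNA and also the tRNA for selenocysteine, went from 1427 and 1853 in virgin to 4565 and 3072 in pregnant glands. This was a log2 ratio of 1.18 ± 0.25 (adjusted p = 0.0213), and its second probe set gave 0.79. Wars, which charges tryptophan tRNA and is known as an interferon-induced gene, went from 326.8 and 261.5 to 635.0 and 712.7 (1.07 ± 0.23, adjusted p = 0.0222). The brightest Wars probe set, of a type prone to cross-hybridisation, gave 0.28 and no call. Cars, which charges cysteine tRNA, went from 379.8 and 532.9 to 902.1 and 839.1 (0.88 ± 0.24, adjusted p = 0.0478), and it lost the call in 11 of 17 alternatives. In each of these genes the groups did not overlap. The virgin control was the lowest of all 6 arrays in Sars and Cars too, and in Iars below. In Wars the virgin mutant was the lowest.

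Vars, the valine enzyme, which is known to associate with elongation factor 1, read 274.3 and 981.9 in virgin glands and 1011 and 1443 in pregnant ones. Its log2 ratio of 1.12 ± 0.31 missed the threshold (adjusted p = 0.0514), and the virgin mutant nearly reached the pregnant control. Yars, for tyrosine, stood at 0.70 (adjusted p = 0.06) and Nars, for asparagine, at 0.81 (adjusted p = 0.174). All 12 cytosolic enzymes outside the complex had a positive ratio, with a median of 0.75 and 4 called. This set runs down to Farsb at 0.03, the beta subunit of the same phenylalanine enzyme as Farsa.

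Of the 7 members in the multi-synthetase complex, Iars rose and 6 were not called, with a median of 0.33. Iars, for isoleucine, read 1342 and 1768, then 3469 and 2878 (1.01 ± 0.22, adjusted p = 0.0258), and its second probe set gave 1.02. Qars, for glutamine, gave 0.67 (adjusted p = 0.0642), and all 4 of its bright probe sets were positive, between 0.33 and 1.23. Eprs, a single protein that charges both glutamate and proline tRNA, was the one cytosolic member with a negative ratio, at -0.38 (adjusted p = 0.284). Its 2 other bright probe sets gave 0.59 and 0.63, so the sign rests on the probe set used.

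Among the 13 mitochondrial members tested none was called. Their median was -0.12 and 4 ratios were positive, whereas the cytosolic median was 0.37 with 18 of 19 positive. This difference between the sets was not tested. The lowest were Lars2 at -0.65 ± 0.23 (adjusted p = 0.102), Hars2 at -0.63 ± 0.28 (adjusted p = 0.177) and Wars2 at -0.54 ± 0.28 (adjusted p = 0.234). Lars2 read 1524 and 1295 in virgin glands and 971.8 and 794.8 in pregnant ones, which do not overlap. The mean of its probe sets turned the ratio to 0.19, but all except the one used lay under the filter. For 10 amino acids both enzymes were tested, and in 9 of them the cytosolic gene had the higher ratio. Leucine (Lars 0.33, Lars2 -0.65), tryptophan (Wars 1.07, Wars2 -0.54) and serine (Sars 1.18, Sars2 -0.12) show it. Threonine was the exception among these 10, at 0.05 for Tars and 0.07 for Tars2. Phenylalanine, glutamate and proline are outside this count, since their genes do not pair by name. On the probe sets used, Eprs at -0.38 lay below Ears2 (-0.12) and Pars2 (0.47). Farsa (1.77) and Farsb (0.03) lay above Fars2 (-0.29). The tryptophan pair rests on the probe sets used, since the second bright Wars2 probe set gave 0.54, above the 0.28 of the brightest Wars probe set, and the mean of the Wars2 probe sets gave 0.00.

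**Figure D2:**
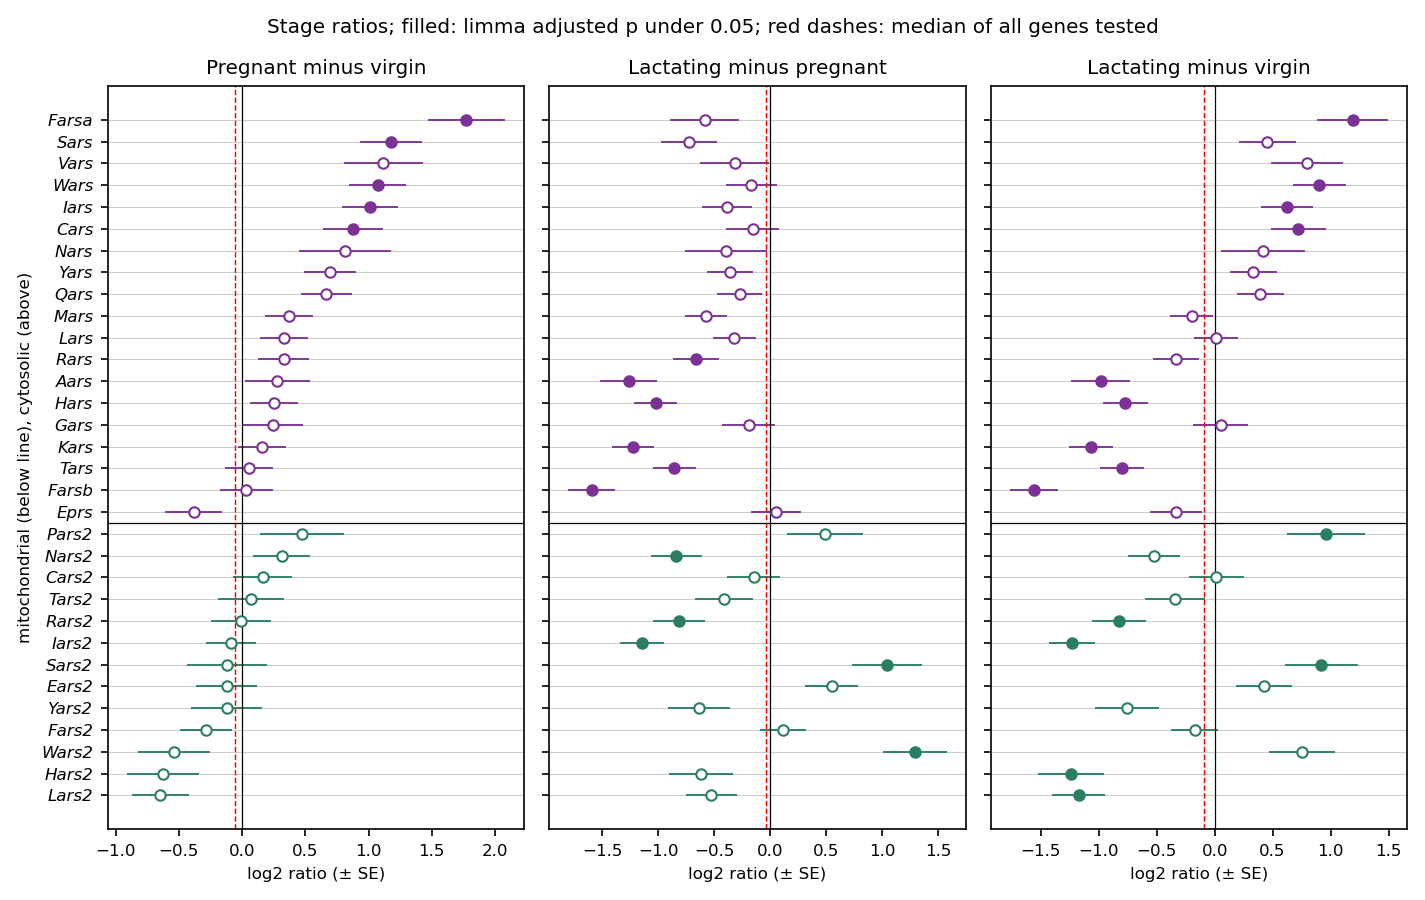
Log2 ratio between stages for the 32 members tested, with SE, cytosolic members in purple above the line and mitochondrial members in green below it. Filled points passed at an adjusted p under 0.05 and the red dashes mark the median of all genes tested. Purple points lie mostly right of 0 in the left panel and left of 0 in the middle one.

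The pregnant against virgin calls rest on few arrays. Without the virgin control no member was called, and none without the pregnant control, where 329 and 378 of all genes were. The median over members was then 0.10 in both cases. Without the virgin mutant 2 members were called, and without both lactating arrays, or either of them, 9 were called higher and 1 lower. Centring each array on its median left 3 called (Farsa, Sars, Wars) and a member median of 0.07, while the distance between the member median and that of all genes stayed at 0.31. Several markers moved with the stage too. The summed signal of 6 skeletal muscle markers was 31374 and 10462 in virgin and 115931 and 125651 in pregnant glands, with 6 of 6 genes called higher. Those of 5 T cell markers fell from 4671 and 5666 to 682.0 and 922.0, with 5 of 5 called lower. Of the 10 secretory alveolar markers 7 were called higher, with a median log2 ratio of 2.05. RNA quality moved as well: the actin 3′ to 5′ ratio was 2.74 and 2.03 in virgin and 1.37 and 1.43 in pregnant glands, and that of Gapdh 3.5 and 1.52 against 0.732 and 0.801. The part of these in the synthetase ratios was not tested.

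Between the pregnant gland and day 1 of lactation, 9 synthetase genes fell and 2 rose. The genes that fell were Farsb, Aars, Kars, Hars, Tars and Rars of the cytosolic set and Iars2, Nars2 and Rars2 of the mitochondrial set, and the genes that rose were the mitochondrial Wars2 and Sars2. Lower calls were 28.1% of the members tested and 17% of all genes, and higher calls 6.25% of the members and 14.9% of all genes. The median log2 ratio was -0.40 over the members and -0.04 over all genes. It was -0.74 between the controls and -0.25 between the mutants.

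Farsb had the lowest ratio, -1.59 ± 0.21 (adjusted p = 0.0037). Its signal was 1087 and 991.4 at the pregnant stage and 363.1 and 262.2 at lactation, against 1037 and 988.7 in virgin glands. The gene thus read alike in virgin and pregnant glands and 3.02-fold lower in lactation, and 2 other bright probe sets gave -1.27 and -0.90. Its partner subunit Farsa read 362.3 in the lactating control and 720.9 in the mutant, a ratio of -0.58 to the pregnant glands that was not called (adjusted p = 0.178), and its other bright probe sets had the opposite sign, at 1.06 and 2.50. Aars, for alanine, fell from 1745 and 1920 to 800.0 and 672.6 (-1.26 ± 0.25, adjusted p = 0.0118), though its brighter probe set gave -0.74. Hars, for histidine, fell from 2009 and 2030 to 926.8 and 1011 (-1.02 ± 0.19, adjusted p = 0.00975), though its second probe set gave -0.46. Tars fell from 1580 and 1766 to 795.1 and 1020 (-0.85 ± 0.19, adjusted p = 0.0154). In all of these the lactating arrays lay below the pregnant ones.

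In the multi-synthetase complex Kars and Rars fell, the enzymes for lysine and arginine. Kars read 2744 and 2327 at the pregnant stage, 1055 and 1047 at lactation and 2244 and 2277 in virgin glands (-1.23 ± 0.19, adjusted p = 0.00531). Both lactating values lay close together and under the lowest of the other 4 arrays. Rars read 3351 and 2793, then 1781 and 2059 (-0.66 ± 0.20, adjusted p = 0.0419). On the probe sets used, the other complex members ranged from -0.57 in Mars (adjusted p = 0.0524) to 0.05 in Eprs. Other bright probe sets gave -1.50 and -0.16 for Eprs. For Qars they gave 1.41, 0.09 and -0.19, against -0.27 for the one used.

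The mitochondrial members went both ways. Iars2, for isoleucine, fell from 1266 and 1428 to 551.0 and 611.8 (-1.14 ± 0.20, adjusted p = 0.00757). Nars2 fell from 840.1 and 846.4 to 469.7 and 429.5 (-0.84 ± 0.23, adjusted p = 0.0285), and Rars2, the mitochondrial arginine enzyme known from a form of pontocerebellar hypoplasia, from 1478 and 1153 to 612.3 and 846.4 (-0.81 ± 0.24, adjusted p = 0.0358). The mean of all probe sets took Iars2 to -0.42 and Nars2 to -0.31, without a call, but the further probe set of each lay under the filter. Wars2 rose from 159.2 and 141.0 to 458.1 and 427.9 (1.29 ± 0.28, adjusted p = 0.0147), with a second probe set at 0.03 and no call for the mean of both (0.66). Sars2 rose from 138.2 and 167.1 to 360.7 and 376.6 (1.04 ± 0.32, adjusted p = 0.041). The pregnant values of these 2 genes lay near the filter at 158.1, where the log2 scale understates a change. Ears2 (0.55) and Pars2 (0.49), which load mitochondrial glutamate and proline tRNA, were positive without a call. In 5 of the same 10 amino acids, paired by gene name, the cytosolic ratio was the higher one, and in 8 the 2 genes had the same sign. Serine (Sars -0.73, Sars2 1.04) and tryptophan (Wars -0.17, Wars2 1.29) had opposite signs. For tryptophan this rests on the Wars probe set used, since the other bright Wars probe sets were positive, at 0.73 and 0.52.

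The scaling of the arrays weighs on this comparison, since the median signal was higher on the lactating arrays. With each array centred on its median, the median of all genes moved by -0.41, 20 members were called lower and 1 higher, Wars2. The direction of the member median was the same under every scaling tried, and its distance from the median of all genes was -0.36 as deposited, -0.36 when centred and -0.31 after quantile normalization. Kars and Farsb passed under all 17 alternatives run for them, and the other 9 genes each lost the call in at least 2. Lower calls numbered 3 without the pregnant control, 2 without the pregnant mutant, 5 without the lactating control and 13 without the lactating mutant, and Wars2 and Sars2 lost their calls in the first 3 of these cases. Of 11 S phase genes 10 were called lower, with a median of -1.56, and of 5 macrophage markers 4. The summed signal of the latter was 13019 and 11872 before and 4503 and 3761 after the step. Their part in the synthetase ratios was not tested.

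Lactating glands set against virgin glands gave calls in both directions. Of 32 members tested 6 rose (18.8%, against 23.8% of all genes) and 9 fell (28.1%, against 28.2%), both shares near or below those of all genes tested. This comparison shares arrays with both of the former. The genes that rose were Farsa (1.19 ± 0.31, adjusted p = 0.0138), Pars2 (0.96), Sars2 (0.92), Wars (0.90), Cars (0.72) and Iars (0.63). Those that fell were Farsb (-1.56 ± 0.21, adjusted p = 0.000975), Hars2 (-1.24), Iars2 (-1.23), Lars2 (-1.17), Kars (-1.07), Aars (-0.98), Rars2 (-0.82), Tars (-0.80) and Hars (-0.77). Thus the 2 subunit genes of the phenylalanine enzyme lay at opposite ends, with Farsa at 114.3 and 317.7 before and 362.3 and 720.9 at lactation.

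Lars2 and Hars2, whose defects are known to cause hearing loss with ovarian failure, were called in lactating against virgin glands but at neither step between (adjusted p = 0.102 and 0.177 for the first step, 0.116 and 0.135 for the second). Lars2 read 521.9 and 677.1 at lactation (adjusted p = 0.00458 against virgin), below its 2 pregnant and its 2 virgin values given above. The mean that takes in its probe sets under the filter gave -0.21 and no call. Hars2 read 912.0 and 792.4 in virgin glands, 558.4 and 506.0 at the pregnant stage and 240.8 and 444.3 at lactation (adjusted p = 0.00864 against virgin). Hars2 and Hars are neighbours on chromosome 18 with no gene of the RefSeq table between them. Pars2 read 108.3 and 222.9 in the virgin glands and 350.1 and 364.1 in the lactating ones (adjusted p = 0.0438), and Sars2 111.7 and 249.0 against the lactating values above (adjusted p = 0.0417). In both the virgin control was the lowest of the 4. After centring on array medians, the median of all genes moved by -0.59, none of the 6 higher calls held and 16 members were lower. Farsb, Kars and Iars2 passed under all 17 alternatives. Aars did not pass with its brighter probe set, which gave -0.01. Without the virgin control 1 member was called higher and 5 lower, without the virgin mutant 3 higher, and without the lactating mutant 2 higher. Vars was called neither here (0.80, adjusted p = 0.0626) nor in lactating against pregnant glands (-0.32, and 0.26 without the pregnant control). Markers of other cell types moved with this comparison: 5 of 6 adipocyte genes were called lower (median -2.51), 5 of 5 T cell, 5 of 6 B and plasma cell, 4 of 5 macrophage and 3 of 4 endothelial genes too, and 5 of 6 skeletal muscle and 7 of 10 secretory alveolar genes were called higher. The summed adipocyte signal was 116024 and 120612 in virgin and 49303 and 46555 in lactating glands. Their part in the synthetase ratios was not tested.

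**Figure D3:**
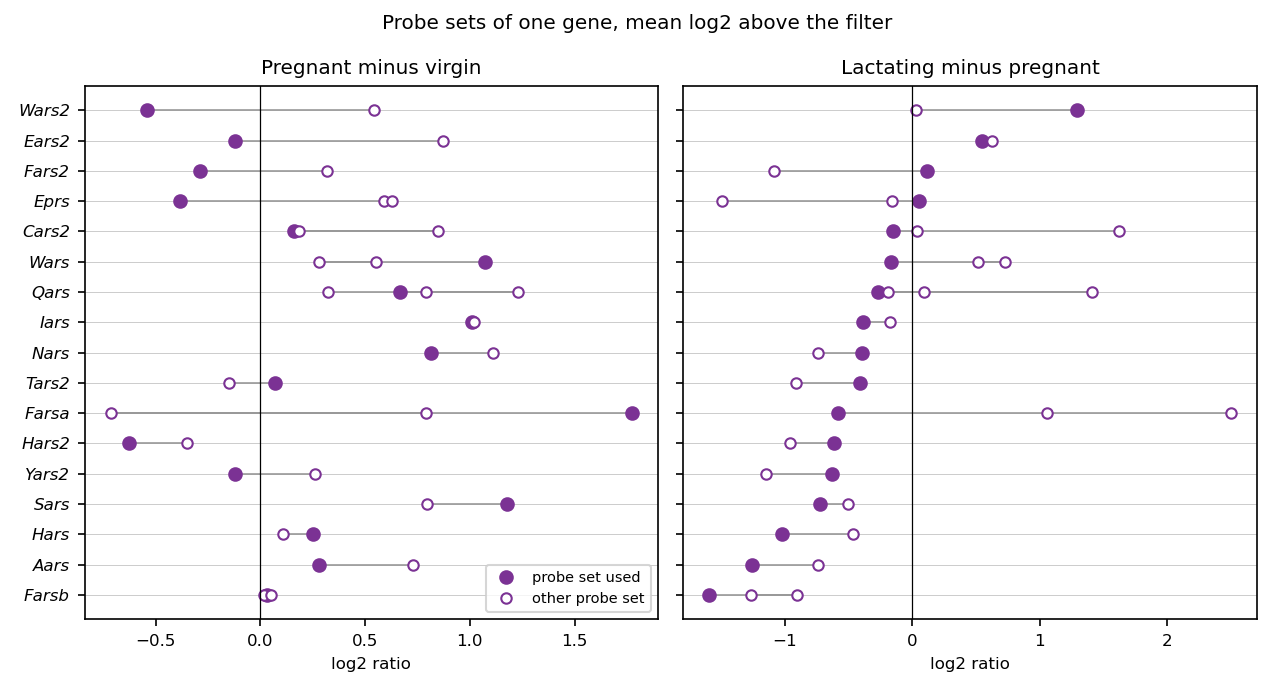
Log2 ratios of all probe sets above the filter for the 17 members that have at least 2 of them, with the probe set used filled. In the left panel the probe sets of a gene lay on one side of 0 in 10 of 17 genes, and in the right panel in 11 of 17.

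Probe sets of a gene give a measure of error that the arrays' number does not. All bright probe sets had one sign in 10 of the 17 members for pregnant against virgin, in 11 for lactating against pregnant and in 16 for lactating against virgin. For mutant against control it was 8 of 17. In Aars, Farsb, Hars, Hars2, Iars, Nars and Sars they had one sign in all 3 stage comparisons.

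Brca1 mutants were compared with controls over the 3 pairs, the question the study asked. None of the 32 members was called by limma, where 0% of all genes were, and the lowest adjusted p of any gene was 0.932. At an unadjusted p under 0.05 there were 2 members, Vars and Farsa, and 534 of all genes. The median log2 ratio was 0.04 over the members and 0.03 over all genes. The member median of the pregnant pair was -0.13, that of the virgin pair 0.13 and that of the lactating pair 0.05.

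Vars had the highest ratio of any member, and earlier results of these data had already named it. Its signal was 274.3 against 981.9 in virgin glands, 1011 against 1443 at the pregnant stage and 522.6 against 1728 at lactation. The mutant was higher in all 3 pairs, by log2 ratios of 1.66, 0.49 and 1.63 in that order, and the fit gave 1.26 ± 0.25 (SE, 3 pairs; unadjusted p = 0.00128, adjusted p = 0.932). The pregnant control was still above the virgin mutant, so the 2 genotypes overlapped across stages. A single probe set reads this gene. Farsa, at 0.69 ± 0.25 (unadjusted p = 0.0258, adjusted p = 0.932), was higher in the mutant by 1.15 among virgin, 0.02 among pregnant and 0.90 among lactating mice. All 3 of its bright probe sets were positive, at 0.69, 0.63 and 0.10.

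The next ratios were small against their errors. Sars2 stood at 0.38 ± 0.26, Cars at 0.31 ± 0.19 and Tars at 0.21 ± 0.15. At the other end were Nars2 (-0.21 ± 0.18), Farsb (-0.20 ± 0.17), Fars2 (-0.18 ± 0.17), Mars (-0.11 ± 0.15) and Wars (-0.11 ± 0.19). Farsb and Wars turned positive with the mean of their probe sets (0.04 and 0.12) and with their brightest probe set (0.25 and 0.15). Higher in the mutant of every pair were 4 members (Vars, Farsa, Sars2 and Tars), where 15.3% of all genes were. Lower in every pair were 2 (Farsb and Ears2), where 10.6% of all genes were.

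Within a stage there is 1 mouse per genotype, so these ratios have no test. In the virgin pair 2 members were at least 2-fold higher in the mutant, Vars and Farsa (1.53% of all genes), and none was 2-fold lower (1.17% of all genes). In the lactating pair 2 were 2-fold higher, Vars and Nars (3.62% of all genes), and none lower (2.77%). In the pregnant pair there was none in either direction, against 1.03% of all genes higher and 0.908% lower. Nars read 2823 in the lactating control and 6224 in the mutant, but 6806 in the pregnant control and 4501 in its mutant. The pairs thus went opposite ways. Its second bright probe set read 2797.9 and 3849 at lactation, under 2-fold, and 5779.8 and 5293.5 at the pregnant stage. Epithelial markers also differed in the lactating pair, with a luminal sum of 32728 and 60329 and a basal sum of 6331 and 9342. In the virgin pair, where both Vars and Farsa stood apart, the control array had the highest 3′ to 5′ ratios of the 6. The part of either in these synthetase ratios was not tested.

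**Figure D4:**
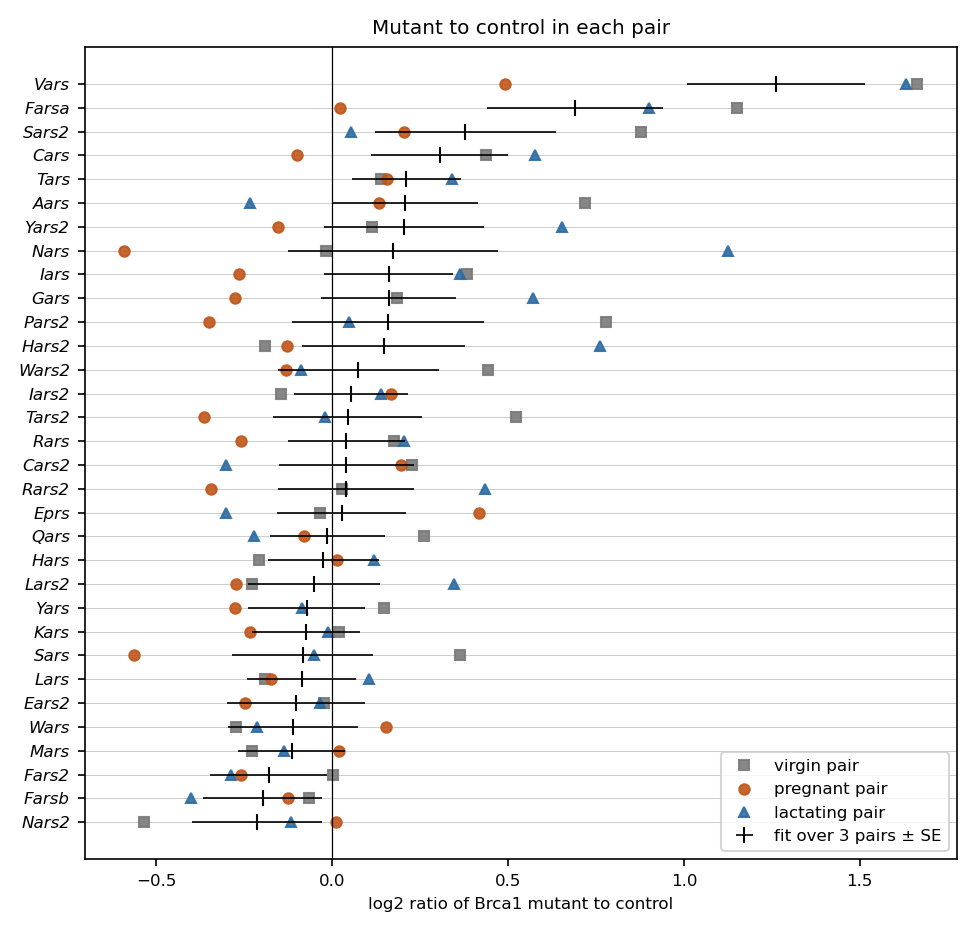
Log2 ratio of the mutant to the control in each pair for the 32 members tested (squares virgin, circles pregnant, triangles lactating), with the ratio fitted over the 3 pairs and its SE as a black bar. Vars lies right of the other members, with its virgin and lactating pairs above 1.6 and its pregnant pair at 0.49.

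The 3 members under the filter are given by value alone. Aars2 read 29.5 in the virgin control and 104.3 to 226.0 in the other 5 arrays. Mars2 read 40.6 and 40.8 in virgin glands, 93.3 and 120.9 at the pregnant stage and 190.9 and 73.8 at lactation. Vars2 read 135.7 and 258.1, 223.5 and 96.8, and 165.5 and 80.7 in the same order. Most of these signals are under or near the filter at 158.1.

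Among the partners of the synthetases in the cytosol, calls from virgin to pregnant were 1 of 3 scaffold genes and 2 of 7 genes of delivery and elongation, all higher, where 6.61% of all genes were called higher. Of the scaffold genes Aimp2 rose, from 917.7 and 1164.5 to 2184 and 2712 (1.19 ± 0.20, adjusted p = 0.0111). Eef1e1 (0.63) and Aimp1 (-0.17) were not called there, and no scaffold gene was called between pregnancy and lactation. The 2 genes that rose among those that deliver charged tRNA and elongate the chain were Eef1a2 (1.81 ± 0.25), an elongation factor of muscle and neurons, and Eif5a (0.95 ± 0.21). None of the 7 was called in lactating against pregnant glands. Eef1a1, the common elongation factor, stood at 0.02 and 0.21 in these comparisons. In lactating against virgin glands 2 of 3 scaffold genes, Aimp2 (0.97) and Eef1e1 (0.85), and 3 of 7 elongation genes, Eef1a2 (1.47), Eef2 (0.90) and Eif5a (0.85), were called higher, where 23.8% of all genes were. The rise of Eef1a2 stands beside the skeletal muscle markers above, and their part in it was not tested.

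Of 9 tested genes of mitochondrial elongation, Tufm (1.82 ± 0.35) and Gfm2 (0.81 ± 0.21) rose in pregnancy (22.2%, against 6.61% of all genes). Mtif2, an initiation factor, fell in lactation (-0.83 ± 0.20, adjusted p = 0.0203), 11.1% of the list against 17% of all genes. Tufm read 64.6 in the virgin control against 382.5 to 1022.5 in the other 5 arrays. Gatc, a subunit of the amidotransferase that makes mitochondrial glutaminyl-tRNA in place of a glutamine enzyme, rose at both steps, from 223.6 and 231.9 in virgin to 746.5 and 642.0 in pregnant and 1110.5 and 1152.3 in lactating glands. Of the 2 other measured subunits Gatb was not called at either step and Qrsl1 was under the filter. Of 6 tested genes of tRNA end formation and proofreading, 2 fell in lactation (33.3%, against 17% of all genes). They were Trnt1 (-1.22 ± 0.23), which adds the terminal CCA, and Dtd1 (-1.11 ± 0.26), which removes D-amino acids from tRNA.

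The Atf4 and amino acid response list, 32 genes tested, had 3 genes called higher and 2 lower in pregnant against virgin glands, with a median of 0.22. These were 9.4% and 6.25% of the list, against 6.61% and 8.09% of all genes. The 4 with the smallest p were Slc1a5 (-2.44), Aldh18a1 (1.37), Slc1a4 (1.23) and Slc7a5 (2.40). In lactating against pregnant glands 4 were higher and 3 lower, with a median of 0.01. Those were 12.5% and 9.4% of the list, against 14.9% and 17% of all genes. Asns, an often used reporter of the response, read 1930 and 1929 in virgin glands, 3372 and 2266 at the pregnant stage and 2024 and 3689 at lactation, and was called in no comparison. Atf4 itself was not called at either step (0.63 and 0.00), nor were Chac1 (0.71 and 0.58) and Ddit3 (-0.50 and -0.79). In lactating against virgin glands 9 of the 32 list genes were called higher and 8 lower, with a median of 0.38, against 23.8% and 28.2% of all genes. There Atf4 (0.63 ± 0.22, adjusted p = 0.0467) and Chac1 (1.29 ± 0.29, adjusted p = 0.00768) rose and Ddit3 fell (-1.29 ± 0.44, adjusted p = 0.0426). Slc7a5 (3.83) rose and Slc1a5 (-2.89) fell in the same comparison. Trib3, a target of Atf4 and Ddit3, rose in lactation, from 489.7 and 309.4 to 1791 and 679.1 (1.39 ± 0.28, adjusted p = 0.0111). The serine pathway genes Psph (-1.49 ± 0.30) and Psat1 (-1.21 ± 0.31) fell there. Among the 5 synthetase genes with the response element core, Iars rose in pregnancy, Aars and Tars fell in lactation, and Gars and Yars were called at neither step. Of all genes, 6.61% were called higher at the first step and 17% lower at the second. With its brighter probe set, of a type prone to cross-hybridisation, Aars was also called higher in pregnancy (0.73, adjusted p = 0.0482). Gars read 2057 and 2346, 2880 and 2368, and 1863 and 2795 over the 3 stages, with overlap between pregnant and lactating glands.

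Of 10 tested genes that sense uncharged tRNA or carry the signal on, Eif2b1 rose in pregnancy (0.81 ± 0.22, adjusted p = 0.046). This is 10% of the list, against 6.61% of all genes. Eif2ak4 fell in lactation, from 440.8 and 360.3 to 255.4 and 82.6 (-1.15 ± 0.33, adjusted p = 0.0358). So did Impact, an inhibitor of its activation (-0.90 ± 0.24, adjusted p = 0.028). These 2 lower calls are 20% of the list, near the 17% of all genes. In the mutant against control comparison no gene of any of these lists was called. The S phase genes had positive ratios in 11 of 11, with a median of 0.65, and no synthetase set had a median above 0.17.

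**Figure D5:**
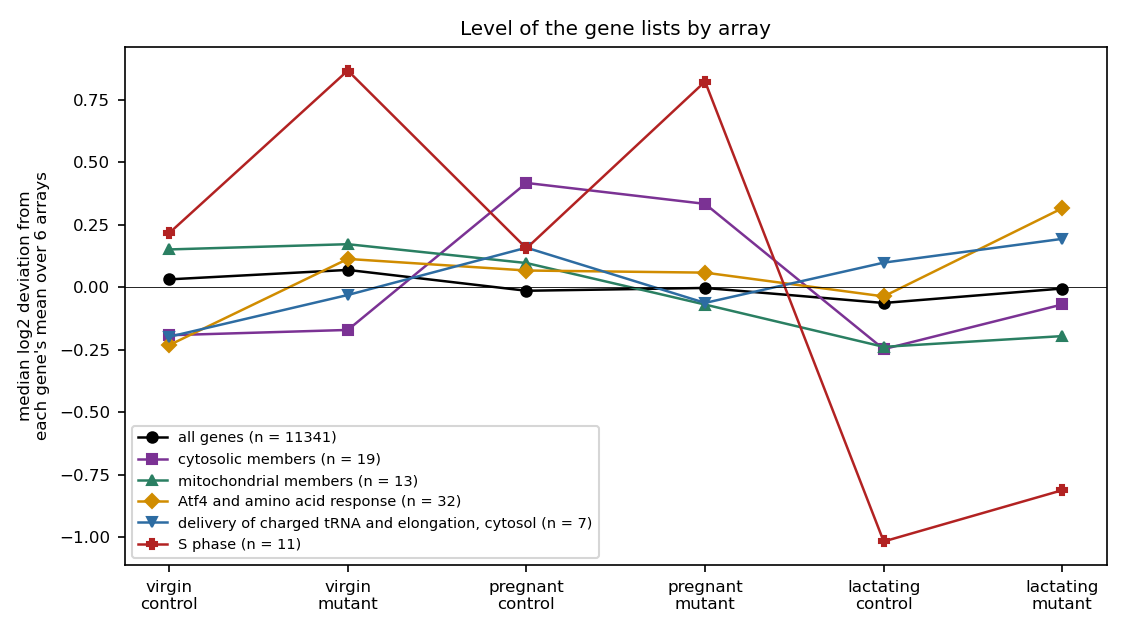
Median, over the tested genes of each list, of the log2 value minus the gene's mean over the 6 arrays (y axis), for each array (x axis, lines only join the points of a list). The cytosolic synthetases stand at 0.42 and 0.33 on the pregnant arrays and between -0.25 and -0.07 on the other 4, and the S phase genes at -1.02 and -0.81 in the lactating ones.

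Across the 6 arrays the cytosolic members thus had their highest median in both pregnant glands. The mitochondrial members stood at 0.15 and 0.17 in virgin glands, 0.10 and -0.07 at the pregnant stage and -0.24 and -0.20 at lactation. By class, 3 of 16 class I and 2 of 15 class II members rose in pregnancy, against 6.61% of all genes. In lactating against pregnant glands 3 of 16 class I (18.8%) and 6 of 15 class II members fell, against 17% of all genes, with medians of -0.34 and -0.61. The difference between the classes was not tested.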

How the data were processed

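Biotin-labelled total RNA from 6 mammary glands was hybridised to an Affymetrix mouse expression array, 1 mouse per array. The deposited values are MAS5 signal intensities on a linear scale, per the submitters' processing notes, and every array has a 2%-trimmed mean of 500; the tool's version and any detection filter are not given in the sources used here. Of 45101 probe sets, 34945 carry 1 gene symbol, and 72 of these belong to members. Each gene was represented by its brightest probe set, taking those with suffixes prone to cross-hybridisation only where there was no other. Values were turned into log2(signal + 52.1), the 25th percentile of all signals, so ratios of dim genes are understated. Genes with a mean log2 under 7.715 (a signal of 158.1) were not tested, which left 11341.

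All 6 arrays were fitted with genotype and stage by lmFit and trended eBayes of limma 3.58.1 under R 4.3.3 (2 residual degrees of freedom, prior 5.54), with Benjamini-Hochberg adjustment over all genes tested and calls at 0.05. Pairing is by stage. No combination of stage and genotype was repeated, so the p-values do not measure the spread between like mice. Their residual is the departure of the 6 arrays from added stage and genotype effects. An effect of the other Brca1 alleles in the pregnant pair can fall in it. The prior, estimated over all genes tested, has more degrees of freedom than this residual. The number of arrays limits the precision. The code was tested on simulated data. In each comparison the 5 highest and 5 lowest members and every called one could be named, with up to 4 genes by p from each other list, and Vars, Asns, Atf4, Chac1, Trib3, Ddit3 and Brca1 always. The members and lists were chosen with earlier results of these data known. Alternatives were other scalings, pseudocounts, filters and probe set rules, no variance trend, no stage block, no genotype term, and leaving out arrays, pairs or the third stage. Motif searches and figures used Python 3.11.15 and matplotlib 3.10.9.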

Additional observations from a re-analysis of the deposited data

Results flagged for a closer look

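On the probe set used, the Brca1 pairs of 2 members differed in direction, with a ratio beyond 0.5 in size on both sides of 0. The difference was not tested, because each pair is 1 mutant and 1 control mouse. Nars, for asparagine, had log2 ratios of mutant to control of -0.5909 in the pregnant pair, -0.0165 in the virgin pair and 1.1262 in the lactating pair. Its second bright probe set differed less, with 5779.8 and 5293.5 in pregnant, 2139.8 and 2992.6 in virgin and 2797.9 and 3849 in lactating glands. Vars2, the mitochondrial valine enzyme, which lay under the filter, had ratios of -0.8882 and -0.7124 in the pregnant and lactating pairs but 0.724 in the virgin pair. Its other probe set, also under the filter, was higher in each mutant. It read 40.7 and 171.2 in pregnant, 37.4 and 206.4 in lactating and 166.7 and 176.8 in virgin glands.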

How the results depend on the processing

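With 2 arrays per stage and 1 array per group, these data limit what can be seen. No result changed sign where it was called. Of the member calls, 0 of 5 for pregnant against virgin, 2 of 11 for lactating against pregnant and 3 of 15 for lactating against virgin passed under every alternative run for them. Leaving out an array leaves 1 residual degree of freedom, and the lone array of a stage is then assumed to vary like the others. No call was made for mutant against control under any alternative, and the member median ranged from -0.04 to 0.17 when arrays or pairs were left out.

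For pregnant against virgin, members called higher numbered 3 with median centring, 3 with the mean of probe sets and 9 without the lactating arrays (1 lower), and 0 to 9 higher and 0 to 1 lower when arrays were left out. The member median was 0.0715 with median centring and 0.0969 to 0.2773 with arrays left out. For lactating against pregnant, higher calls numbered 1 with quantile normalization, median centring, a lower pseudocount or no filter and 0 with a filter at the 75th percentile; with arrays left out they numbered 0 to 2, and lower calls 2 to 13. The filter at the 75th percentile left 25 members tested, without Wars2 and Sars2, so neither of these could be called there. Median centring gave 20 lower calls and a member median of -0.8137, and arrays left out -0.6992 to -0.2594. For lactating against virgin, higher calls numbered 3 with quantile normalization or the lower pseudocount, 0 with median centring and 1 with the stricter filter, and 1 to 6 with arrays left out; lower calls were 16 with median centring and 5 to 9 with arrays left out. Farsa, Pars2, Sars2 and Wars were not tested under the stricter filter, so they could not be called there. The member median in lactating against virgin, main value -0.08, was -0.6668 with median centring and 0.0148 with no filter. It was -0.3337 with the stricter filter, over 25 members, and 0.0388 with the mean of probe sets. The brightest probe set of any suffix gave 0.0035 and arrays left out -0.2136 to -0.008, so this median has no settled sign.

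Over all genes, 45.0% of calls were higher in pregnant against virgin, 46.8% in lactating against pregnant and 45.8% in lactating against virgin, and 27.8%, 16.7% and 18.8% with median centring. All calls numbered 1667, 3614 and 5895. They were 329 to 2624 in the first comparison, 1138 to 3352 in the second and 3385 to 5610 in the third when arrays or a stage were left out, and 2106 and 3513 in the last 2 with the stricter filter. The stricter filter left 6675 genes to test, fewer than in the main fit, so its counts are not like for like with the main counts. Apart from that, the causes of these shifts were not tested.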
